A study of Homo sapiens with 9 samples.

Results

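Antisense transcripts are RNAs read from the DNA strand opposite to another gene, and the table used here lists 3508 such genes among 32990. They were chosen by annotation and level: a gene of the type antisense, with a symbol that does not start with SNHG and with at least 10 counts in at least 3 of the 9 libraries. The rule kept 654 genes. It left out 5 SNHG genes and 2849 genes below the count minimum. Each was paired with the protein-coding gene that it overlapped most by position, which gave 565 pairs with 547 different coding partners and left 89 transcripts that overlap no coding gene.

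The RNA came from 3 human liver cancer cell lines, Hep3B, Huh7 and SNU449, grown in the same DMEM medium with serum. Each line was left untreated as its control or was given THZ531 at 250 nM or at 500 nM, with 1 library for each line and dose, so 9 libraries in all. THZ531 binds the kinases CDK12 and CDK13 covalently and blocks both. For the time of treatment the labels conflict: the sample characteristics state 48 h for every treated library, and the protocol states 24 h for Hep3B and Huh7 but 48 h for SNU449. The cell line and the time can therefore not be told apart. No label says that the libraries came from separate cultures, so each p-value reflects how much these particular libraries vary.

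Many promoters of coding genes start transcription on both strands. The RNA that leaves on the opposite strand is usually short, ends at an early poly(A) signal and is degraded in the nucleus, and the part of it that is stable enough to be annotated makes up many antisense genes. CDK12 and CDK13 pair with cyclin K and phosphorylate the tail of RNA polymerase II, which keeps the polymerase productive along long genes. Other antisense genes lie across the 3′ end of their partner or inside it, and a few, such as KCNQ1OT1 and TUG1, have been studied as regulators in their own right.

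The pairs below show how close the starts of both genes can lie. They are promoters of 4 coding partners whose window holds the start of an antisense transcript that rose at 500 nM. Among the pairs searched, these are the 4 with the smallest p. Each runs 5′ to 3′ on the strand of the coding gene, from 250 bases before its start to 50 bases after it, from RefSeq on GRCh38.p14. Capitals mark GGGCGG or its reverse complement, the core of a GC box.
FANCL, chr2:58241276-58241575, minus strand: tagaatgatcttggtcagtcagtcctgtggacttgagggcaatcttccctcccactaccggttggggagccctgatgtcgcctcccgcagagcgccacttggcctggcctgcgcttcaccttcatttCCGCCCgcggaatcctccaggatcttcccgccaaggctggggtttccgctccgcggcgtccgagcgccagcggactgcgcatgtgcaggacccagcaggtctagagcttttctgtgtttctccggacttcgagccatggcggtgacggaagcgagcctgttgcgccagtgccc
PTP4A1, chr6:63572230-63572529, plus strand: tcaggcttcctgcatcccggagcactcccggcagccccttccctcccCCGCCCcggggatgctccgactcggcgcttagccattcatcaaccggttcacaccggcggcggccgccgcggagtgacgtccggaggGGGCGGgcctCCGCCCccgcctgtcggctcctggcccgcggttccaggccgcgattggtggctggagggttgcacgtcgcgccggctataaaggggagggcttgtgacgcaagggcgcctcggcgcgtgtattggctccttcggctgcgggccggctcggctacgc
EXTL2, chr1:100894793-100895092, minus strand: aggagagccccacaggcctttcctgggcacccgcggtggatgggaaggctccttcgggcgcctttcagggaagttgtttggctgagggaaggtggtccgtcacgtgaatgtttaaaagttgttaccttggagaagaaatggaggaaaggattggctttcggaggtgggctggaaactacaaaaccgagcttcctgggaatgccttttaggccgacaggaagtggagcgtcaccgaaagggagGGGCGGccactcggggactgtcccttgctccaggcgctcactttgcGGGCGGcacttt
STIM2, chr4:26860591-26860890, plus strand: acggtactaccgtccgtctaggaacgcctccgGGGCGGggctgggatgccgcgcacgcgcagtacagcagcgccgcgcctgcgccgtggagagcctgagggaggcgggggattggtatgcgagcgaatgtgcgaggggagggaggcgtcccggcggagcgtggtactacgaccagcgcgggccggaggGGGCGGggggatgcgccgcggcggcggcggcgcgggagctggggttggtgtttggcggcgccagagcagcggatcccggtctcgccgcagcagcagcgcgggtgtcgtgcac

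In these windows the coding start is at position 251. The start of RP11-334G22.1 falls at position 227 of the FANCL window, that of RP5-1148A21.3 at position 179 of the PTP4A1 window, that of RP4-549L20.3 at position 165 of the EXTL2 window and that of RP11-293A21.1 at position 9 of the STIM2 window. Of 55 rising transcripts searched, on the strand opposite to a partner with such a window, 7 start inside it. The filter of the search left out a whole chromosome, so both counts hold only for the pairs searched. A window of the same kind around the antisense start itself was found for 337 of the 654 transcripts. GGGCGG on either strand was in 62.9% of them, against 44.6% of all 27305 promoters in the RefSeq table, and TATAAA, the core of a TATA box, on either strand in 5.93% against 11.95%. Their median number of CpG was 25, against 14 over all promoters. Coding genes under the same count rule had much the same windows, with GGGCGG in 70.0%, TATAAA in 5.86% and a median of 26 CpG. Among the 34 windows of transcripts that rose at 500 nM, 76.5% held GGGCGG. A match says only that these letters are present.

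Since the libraries were made from polyadenylated RNA, the annotated 3′ ends matter as well. The last 50 bases of 5 transcripts described below are given from the GENCODE v29 transcripts on GRCh38, with capitals at AATAAA, the common poly(A) signal. The first 4 were picked because they hold it, and the last is a rising transcript without it.
RP11-334G22.1, chr2:58241637-58241686, plus strand: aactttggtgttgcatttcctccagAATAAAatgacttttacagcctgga
RP11-393I2.4, chr6:87151159-87151208, minus strand: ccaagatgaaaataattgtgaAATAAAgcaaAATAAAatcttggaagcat
RP11-102M11.2, chr3:136755731-136755780, plus strand: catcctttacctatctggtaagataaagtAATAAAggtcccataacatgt
CTD-2371O3.3, chr11:9459556-9459605, minus strand: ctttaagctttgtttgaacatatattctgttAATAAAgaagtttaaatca
RP11-109G23.3, chr4:78773654-78773703, minus strand: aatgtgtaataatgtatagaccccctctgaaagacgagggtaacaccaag

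On the transcribed strand, AATAAA was in the last 50 bases of 47.6% of the 641 antisense transcripts found in GENCODE v29 and of 42.0% of the 88 such transcripts that rose at 500 nM. It was in 62.9% of the coding partners and in 50.6% of lincRNAs that met the same count rule.

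The total count per library ran from 5701981 in Huh7 at 500 nM to 20657610 in the Hep3B control, so low counts are least precise in the treated Huh7 library. The antisense transcripts held between 0.186% and 0.306% of all counts of a library. The 8 hepatocyte markers (such as ALB and APOA1) summed to 24966 to 42128 CPM (counts scaled to the size of the library) in the Hep3B libraries and 8354 to 29757 in Huh7, lowest in each control, but to 5.04 to 6.10 in SNU449, where 4 of the 8 had 10 counts in the control. Among the immune markers, LYZ gave nearly all of the sum of 121 to 613 CPM in Huh7 (71.0 to 138 in Hep3B), and PTPRC, CD3E and CD68 were near 0. The 5 fibroblast markers summed to 314 to 1135 CPM in Huh7 and 23.6 to 44.1 in Hep3B. The 7 mesenchymal markers summed to 8302 to 21502 CPM in Huh7 and 3112 to 6714 in Hep3B. In Hep3B and Huh7 each of these sums was lowest in the control. The part of these shifts in the antisense results was not tested. In bulk RNA, fewer cells of a kind and less RNA per cell cannot be told apart.

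Strand decides what an antisense count means. The labels call the libraries stranded, but whether the counting used strand is not stated in the sources used here. As a measurement that bears on it, 340 genes in the table have every exonic base under exons of genes on the opposite strand in GENCODE v29 and none under another gene on their own strand. Their median was 3 counts over the 9 libraries together, 102 of them had at least 10 and 16 had at least 100, led by the coding gene HYI with 3055. Of the 654 transcripts, 13 are among these 340 genes. The 89 transcripts that overlap no coding gene share no exon with one, and 19 of them rose at 500 nM, as described next. For the others, reads of partner RNA cannot be told apart from antisense reads unless strand was used.

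The 654 transcripts were mostly scarce. The median of their mean level over the 9 libraries was 1.56 CPM, with a range from 0.222 to 157. Only 136 had 10 counts in all 9 libraries, 266 had them in all 3 controls and 98 in no control. The last 98 met the count rule through treated libraries alone, so a rise is built into their choice. At the threshold, 37 transcripts had exactly 10 counts in their third-highest library, such as BZRAP1-AS1, RP11-16P6.1 and CTD-2506P8.6. Another 42 antisense genes had 9 and stayed out, such as RP11-24F11.2, RP11-1348G14.8 and STK24-AS1.

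Antisense transcripts were higher after THZ531 in Hep3B and Huh7 and not in SNU449. Their median log2 ratio to the control of the same line stood at 0.74 at 250 nM and 0.97 at 500 nM in Hep3B, and 0.46 and 1.34 in Huh7. The SNU449 values were 0.00 and -0.07. The coding partners lay near or below the control, with Hep3B medians of -0.08 and -0.17, Huh7 medians of -0.04 and -0.25 and SNU449 medians of 0.00 at both doses. LincRNAs chosen by the same count rule had medians of 0.47 at both doses in Hep3B and 0.21 and 0.64 in Huh7. At 500 nM, processed pseudogenes under this rule reached 1.19 (Hep3B) and 1.39 (Huh7), above the antisense medians. Sense intronic genes reached 0.82 (Hep3B) and 1.03 (Huh7), and processed transcripts 0.36 (Hep3B) and 0.56 (Huh7). A rise of this size was therefore not particular to antisense transcripts. Since the count rule let in transcripts through their treated libraries, these medians describe the set and test nothing. Among the 266 transcripts with 10 counts in every control Hep3B had medians of 0.13 and 0.28 and Huh7 of -0.03 and 0.65.

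**Figure D1:**
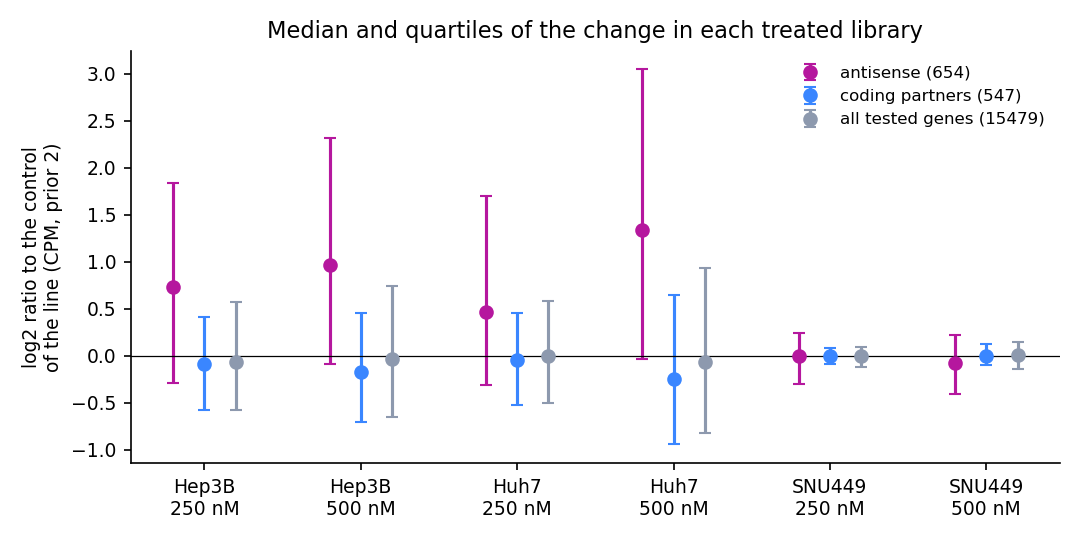
Points are medians and bars the quartiles of the log2 ratio of CPM to the control of the line, for the 6 treated libraries. The antisense median was above 0 in the 4 Hep3B and Huh7 libraries, between 0.46 and 1.34, while the partners stayed between -0.25 and -0.04 there.

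These ratios rest on trimmed-mean scaling, which holds the median of all tested genes near 0. Scaled by total counts instead, the median of all tested genes fell to -0.58 in Hep3B and -0.95 in Huh7 at 500 nM. The antisense median was then 0.43 and 0.49 and that of the partners -0.69 and -1.05. For the 266 transcripts with 10 counts in every control, the sign at 500 nM depended on the scaling. With total counts, the Hep3B median of this subset lay below 0 at both doses (-0.24 at 250 nM, -0.29 at 500 nM). So did its Huh7 median (-0.47 at 250 nM, -0.28 at 500 nM). At 500 nM both lines still had a higher median for this subset than for all tested genes.

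At 500 nM, 89 of the 630 antisense transcripts that could be tested were higher than control over the 3 lines and 0 were lower (edgeR quasi-likelihood test with a term for cell line, adjusted p over all 15479 tested genes). The background was 3.45% of all tested genes higher and 0.724% lower. At 250 nM, 33 were higher and 0 lower, against 1.06% and 0.155% of all genes. All 33 were also among the 89. No transcript passed between 500 and 250 nM by edgeR, DESeq2 or limma-voom, with 18 at an unadjusted p under 0.05 by edgeR, and neither did any other gene (background 0%). For the 0 lower calls at 500 nM, 19 transcripts had an unadjusted p under 0.05, and DESeq2 called 3 and limma-voom 1. At 250 nM, where 26 had such a p, DESeq2 and limma-voom both called 0. Under total-count scaling the split at 500 nM was 124 higher and 20 lower.

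Of the 89, 60 had 10 counts in no control and 13 had them in all 3 controls. The 60 met the count rule through treated libraries, so the share of 14.1% is not comparable with the background. Under the same count rule, 19.4% of tested processed pseudogenes, 12.5% of sense intronic genes and 11.9% of lincRNAs were higher at 500 nM. For processed transcripts the share was 6.45%, and for coding genes 1.67%. Among genes with 10 counts in every control, 13 of 264 antisense transcripts were higher at 500 nM (4.92%) and 0 lower, and 0.928% and 0.604% of 11747 genes were. This background was computed after the data were seen. At 500 nM the 89 had a median log2 ratio of 3.73 (Hep3B), 4.29 (Huh7) and 0.32 (SNU449). All 89 were at least 2-fold higher in Hep3B and in Huh7 and 8 in SNU449, where 18.6%, 24% and 0.956% of all tested genes were. The 89 were called on these same libraries, so large ratios follow from the choice and are no further support. With 1 library per line and dose, the count turned on single libraries. Without the Hep3B line it was 0, without Huh7 3 and without SNU449 289. Leaving out 1 library gave 8 without Hep3B at 500 nM, 6 without Huh7 at 500 nM, 224 without SNU449 at 500 nM, and 10, 34 and 285 without the control of Hep3B, Huh7 and SNU449. At 250 nM the count of 33 became 0, 2 and 205 without the same 3 lines. It became 4, 12 and 19 without the 250 nM library of Hep3B, Huh7 and SNU449, 3 and 14 without the 500 nM library of Hep3B and Huh7, and 1, 11 and 237 without the 3 controls. A fit on only the control and 500 nM libraries called 6.

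**Figure D2:**
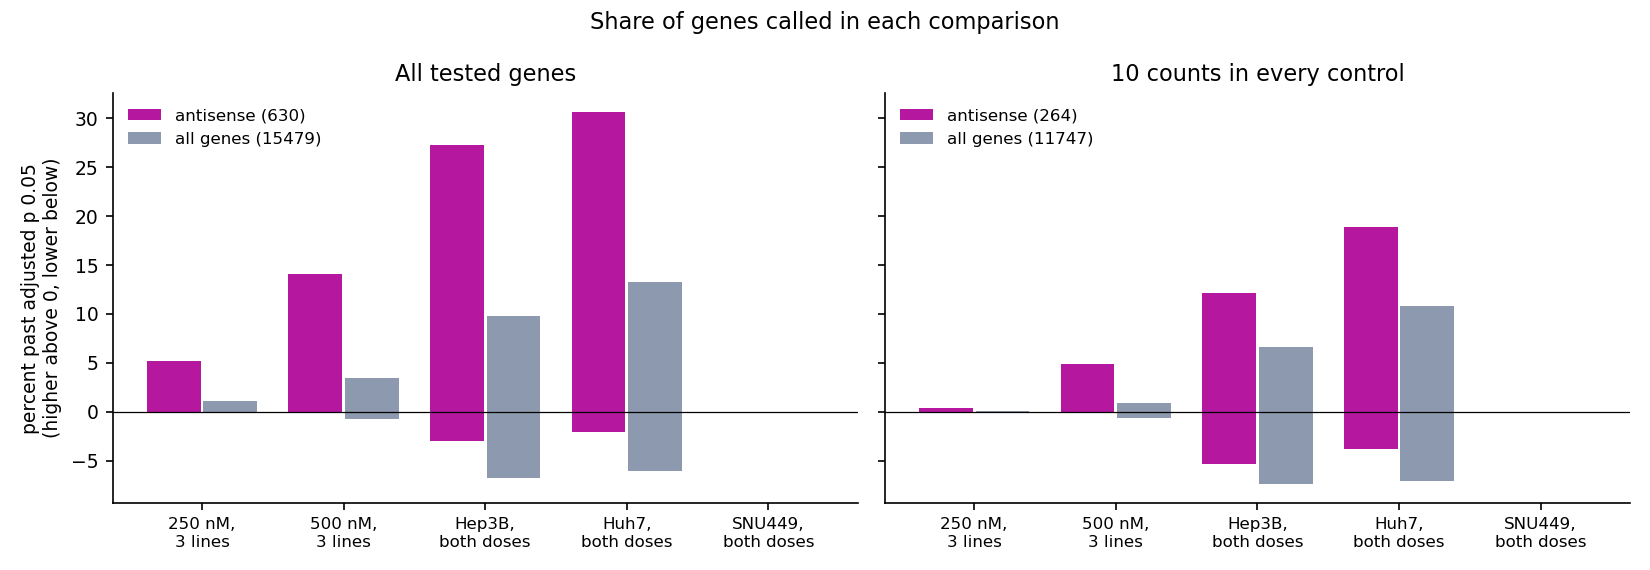
Bars give the percent of genes past an adjusted p of 0.05, higher above 0 and lower below 0, for antisense transcripts and all genes, on the left for all tested genes and on the right for genes with 10 counts in every control. The antisense share higher is 27.3% in Hep3B and 30.6% in Huh7 on the left, where the count rule built in part of the rise, and 12.1% and 18.9% on the right, and SNU449 has no bar because 0 genes passed there.

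Most of the largest rises were transcripts hardly seen in the controls. RP11-334G22.1, a transcript of 338 bases that starts at the FANCL promoter (chr2:58241349-58241686, plus strand), had 1, 65 and 46 counts in Hep3B at 0, 250 and 500 nM. In Huh7 it had 1, 40 and 34 counts and in SNU449 0, 1 and 2. The 4 treated libraries of Hep3B and Huh7 were far above all other libraries, in a transcript named for its large rise. Its fitted change at 500 nM was 6.84 ± 0.74 (log2, SE; adjusted p = 0.000489). With 1 count in the Hep3B control and 1 in the Huh7 control the ratio is loose: in Hep3B it was 124-fold at 500 nM with a counting interval from 21.1 to 4989.

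RP5-1024G6.7 (chr1:53220663-53224253, plus strand), whose start lies 46 bases outside the coding gene C1orf123, had 0 counts in all 3 controls. It had 18 and 30 counts in treated Hep3B, 10 and 24 in treated Huh7 and 0 in treated SNU449. Against a floor of 3 counts in the control it was at least 26.9-fold higher in Hep3B and 39.0-fold in Huh7 at 500 nM (adjusted p = 0.00415). Its adjusted p was 0.152 by DESeq2, and 0.0879 and 0.103 without the 500 nM library of Hep3B or of Huh7. RP11-109G23.3, divergent from BMP2K, had 0, 42 and 76 counts in Hep3B, 3, 35 and 47 in Huh7 and 0, 0 and 2 in SNU449. RP11-102M11.2 (chr3:136752630-136755780, plus strand), which starts 227 bases from the cohesin gene STAG1 on the opposite strand, had 2, 85 and 111 counts in Hep3B, 4, 31 and 71 in Huh7 and 0, 4 and 2 in SNU449. Both passed at 500 nM, with log2 changes of 6.99 ± 0.83 and 6.47 ± 0.73 (adjusted p = 0.000839 and 0.000531). None of these 3 transcripts overlaps a coding gene. They were named for their large rises, so the distance of treated Hep3B and Huh7 libraries from the others follows from that choice.

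The other transcripts among the 12 largest rises lie over or inside a coding gene, apart from CTD-2302E22.4 beside PPP2R5E and LINC00685 (chromosome X), which overlap none. They include RP11-393I2.4 over ZNF292, AC108004.3 over C17orf97, AC009501.4 over EHBP1, RP11-326K13.4 inside TRAPPC8, FLJ13224 inside FAM60A and RP11-501C14.5 over IGF2BP1, an RNA-binding protein gene. Their log2 changes at 500 nM ran from 5.79 ± 1.20 (LINC00685, adjusted p = 0.017) to 6.51 ± 0.92 (RP11-393I2.4, adjusted p = 0.00287). Of the 12, 7 lost the call without Hep3B at 500 nM and 8 without Huh7 at 500 nM, and LINC00685 also by DESeq2 (adjusted p = 0.222). RP11-393I2.4, 1 of the 8, showed the usual shape, with 1, 108 and 58 counts in Hep3B, 1, 35 and 38 in Huh7 and 1, 1 and 3 in SNU449.

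A few better covered transcripts also rose. CTD-2371O3.3, which starts 383 bases from the start of ZNF143 on the other strand (chr11:9459556-9460702), had 1.67, 31.9 and 44.3 CPM in Hep3B at 0, 250 and 500 nM. In Huh7 it had 1.16, 16.3 and 55.3 CPM, and in SNU449 0.786, 1.11 and 0.885. Only the 4 treated Hep3B and Huh7 libraries were high, and the change at 500 nM was 4.07 ± 0.77 (log2, adjusted p = 0.0117). KCNQ1OT1, the long imprinted RNA that silences its neighbours on one parental chromosome, had 6.12, 22.5 and 62.3 CPM in Hep3B. It had 13.4, 28.4 and 81.0 CPM in Huh7 and 2.24, 2.21 and 2.27 in SNU449, with a change of 2.16 ± 0.47 at 500 nM (adjusted p = 0.0225). It climbed with dose in both lines that moved and stayed level in SNU449. Without the 500 nM library of Hep3B or of Huh7 its adjusted p was 0.287 and 0.259, and that of CTD-2371O3.3 was 0.162 and 0.144. RP11-434H6.6 was among the 5 largest rises at 250 nM (6.17 ± 1.05, adjusted p = 0.0141), and the other 4 were RP5-1024G6.7, RP11-334G22.1, AC009501.4 and RP11-393I2.4.

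**Figure D3:**
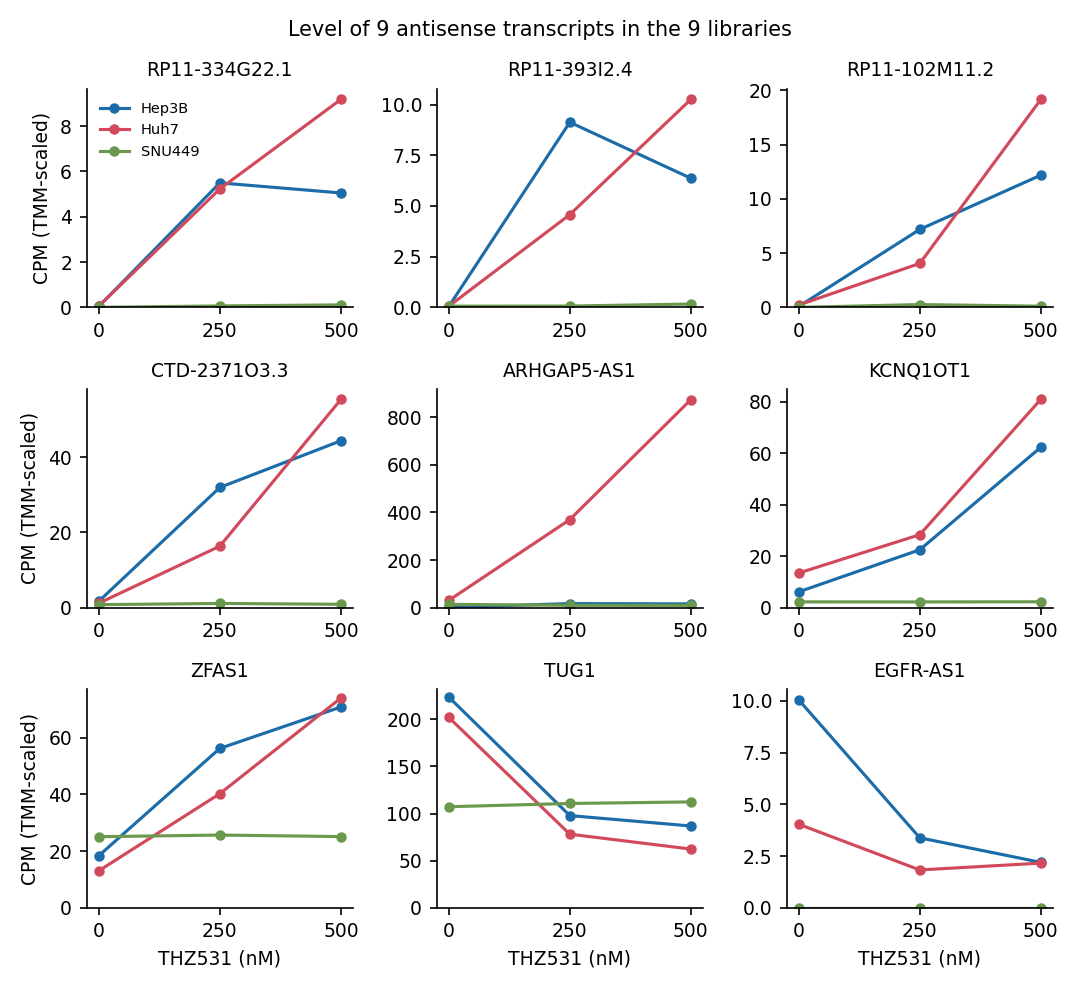
Each panel plots the scaled CPM of 1 antisense transcript against the THZ531 dose, with a line per cell line and 1 library per point. RP11-334G22.1, RP11-393I2.4, RP11-102M11.2, CTD-2371O3.3, ARHGAP5-AS1, KCNQ1OT1 and ZFAS1 lie higher in treated Hep3B and Huh7, and TUG1 and EGFR-AS1 lower. SNU449 is flat or near 0, apart from ARHGAP5-AS1, which was 0.70-fold and 0.67-fold of control at 250 and 500 nM.

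No fall passed over the 3 lines at 500 nM, and the ones with the smallest p are given as values. TUG1, an abundant long noncoding RNA, had 224, 97.9 and 86.8 CPM in Hep3B, 202, 78.1 and 62.3 in Huh7 and 107, 111 and 112 in SNU449. Its change at 500 nM was -1.04 ± 0.33 (log2, adjusted p = 0.076), and SNU449 did not move with the other lines. Under total-count scaling it passed (-1.60, adjusted p = 0.0193). Within a line it fell in Hep3B by 1.28 ± 0.31 (adjusted p = 0.0174) and in Huh7 by 1.52 ± 0.31 (adjusted p = 0.00765) on the log2 scale. RP11-96D1.11, which lies wholly under exons of NFATC3, had 130, 20 and 14 counts in Hep3B, 122, 12 and 2 in Huh7 and 6, 2 and 4 in SNU449. Its change was -2.01 ± 0.57 (adjusted p = 0.0616), and it passed under total-count scaling and by limma-voom (adjusted p = 0.0148 and 0.0399). RP11-284F21.10, RP5-991G20.1, RP11-421L21.3 and IGF2-AS had changes from -2.50 to -1.47, none past the test. Averaged over both doses, 88 transcripts were higher and 2 lower, RP11-96D1.11 and RP11-284F21.10, against 3.46% and 1.72% of all genes.

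Within single lines, where the 2 treated libraries are set against the 1 control, 172 antisense transcripts rose and 19 fell in Hep3B (background 9.82% higher and 6.72% lower). In Huh7, 193 rose and 13 fell (background 13.3% and 6.04%). In SNU449, 0 passed in either direction, as for all genes (background 0%); 2 transcripts had an unadjusted p under 0.05, and DESeq2 and limma-voom also called 0. The rises overlapped: 142 were higher in both Hep3B and Huh7, which is 82.6% of the Hep3B list and 73.6% of the Huh7 list. Another 6 fell in both and 1 went opposite ways. The 98 transcripts with 10 counts in no control could meet the count rule only through treated libraries of more than 1 line. Of these 98, 85 rose in Hep3B and 80 in Huh7, so part of the overlap is built in. The overlap over all genes is not given here. The total of 191 changed transcripts in Hep3B became 0 without its 250 nM library and 7 without its 500 nM library, and 305 without either treated Huh7 library. The total of 206 in Huh7 became 83 and 86 without the 250 and 500 nM library of Hep3B and 133 without its own 500 nM library. Among the 264 tested transcripts with 10 counts in every control, 32 rose and 14 fell in Hep3B (12.1% and 5.30%), and 6.61% and 7.40% of all genes with such controls did. In Huh7, 50 rose and 10 fell (18.9% and 3.79%), beside 10.9% and 7.11%.

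By line at 500 nM, the 5 largest ratios among transcripts with at least 100 counts in 1 library of the line repeated names given above, with the addition of CTD-3193O13.12 and RP11-872J21.3 in Hep3B and AC009506.1, ARHGAP5-AS1 and CTC-524C5.2 in Huh7. By the same rule the SNU449 ratios were small, from 0.50 for UBA6-AS1 (88, 101 and 137 counts) to -0.79 for PSMD5-AS1 (170, 148 and 106 counts). CTC-524C5.2, over the 3′ end of RPAIN, had 0.94, 8.36 and 29.7 CPM in Huh7. Toward lower levels, NNT-AS1 went from 13.8 to 5.16 and 2.85 CPM in Hep3B and HAGLR, from the HOXD cluster, from 14.7 to 2.48 and 4.05 CPM in Huh7. WAC-AS1 fell in both lines, by 1.71 ± 0.36 in Hep3B and 1.21 ± 0.39 in Huh7 (log2, adjusted p = 0.0103 and 0.0482), and in Huh7 its adjusted p by DESeq2 was 0.126. EGFR-AS1, inside the growth factor receptor gene EGFR, was 10.0, 3.38 and 2.20 CPM in Hep3B and 4.04, 1.83 and 2.16 in Huh7, with 0 counts in SNU449. It fell in Hep3B by 1.83 ± 0.45 (adjusted p = 0.021), and in Huh7 its adjusted p was 0.184.

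The response differed between the 3 lines for 6 transcripts by the test of that difference (background 1.14% of all genes). ARHGAP5-AS1, which starts 679 bases from ARHGAP5, had 0.898, 16.9 and 15.6 CPM in Hep3B. In Huh7 it had 30.2, 370 and 874 CPM, the highest of any library, and in SNU449 13.8, 9.64 and 9.30. The treated terms of Hep3B and Huh7 were 4.16 ± 0.61 and 4.36 ± 0.55, and that of SNU449 was -0.54 ± 0.45 (log2; adjusted p of the difference 0.0192). MBNL1-AS1, RP11-420L9.5, ENSG00000272686 beside WASL, TSC22D1-AS1 and the antisense gene listed as MIR4519 had the same shape. Without either treated Hep3B library the count was 0. It was 120 and 44 without the 250 and 500 nM library of Huh7, and 31 and 30 without those of SNU449.

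Where a transcript starts went with how it changed. The 309 transcripts that start within 1 kb of the start of a coding gene on the other strand had a median log2 ratio of 1.39 in Hep3B and 1.95 in Huh7 at 500 nM, and 50 of them rose over the 3 lines. The 97 that start 1 to 5 kb away had 1.50 and 2.22, with 22 that rose. The 235 that start farther away had 0.32 and 0.34, with 16 that rose. In SNU449 at 500 nM all 3 medians lay between -0.10 and -0.01. Among transcripts with 10 counts in every control, the medians were 0.70 and 0.999 within 1 kb (140 transcripts), 0.56 and 1.13 at 1 to 5 kb (27) and -0.15 and -0.11 beyond (93), for Hep3B and Huh7. By share of those tested, 16.7%, 24.2% and 7.08% rose over the 3 lines, beside 3.45% of all genes. With 10 counts in every control it was 7.19%, 3.70% and 2.17%, and 0.928% of all genes with such controls.

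Near a coding start, unspliced transcripts had the larger ratios. The 97 with 1 exon block had medians of 2.58 in Hep3B and 3.37 in Huh7, and the 212 with more blocks 0.92 and 1.14. Beyond 5 kb the same split gave 0.04 and 0.22 for 63 transcripts with 1 block and 0.42 and 0.34 for 172 with more. The calls over the 3 lines at 500 nM split in both places. Within 1 kb 34.0% of tested transcripts with 1 block rose and 8.37% with more, and beyond 5 kb 22.4% and 1.79%. The 54 transcripts near a coding start that overlap no coding gene had 2.41 and 3.20. These medians and shares include transcripts that met the count rule through treated libraries. They are descriptions over genes, with no test between groups, and levels moved with them. The median mean level was 2.58 CPM for the 97 unspliced transcripts near a start and 1.29 CPM for the 63 far from one.

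**Figure D4:**
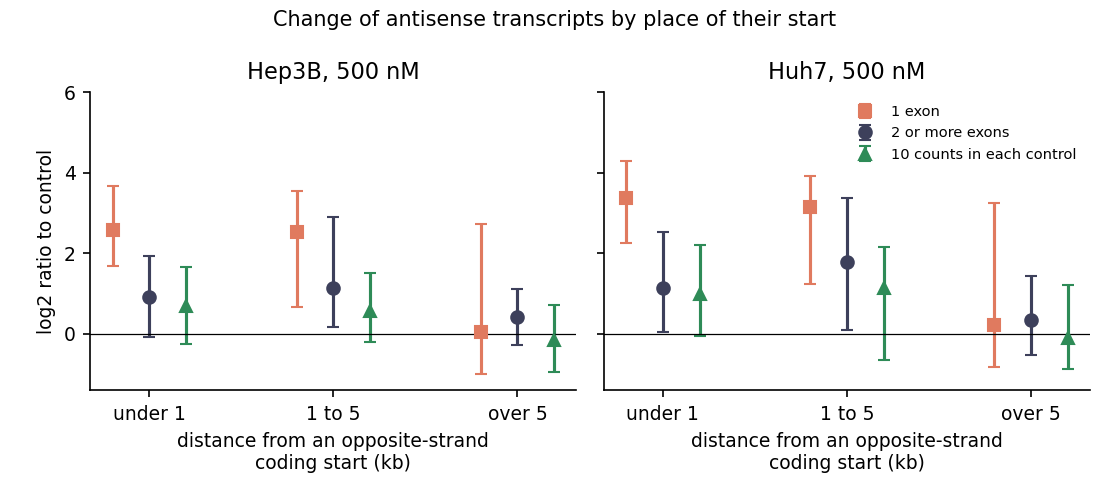
Points are medians and bars the quartiles of the log2 ratio at 500 nM, by the distance in kb between the antisense start and the nearest coding start on the other strand, for Hep3B and Huh7. Transcripts with 1 exon had medians of 2.58 and 3.37 within 1 kb and of 0.04 and 0.22 beyond 5 kb.

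By position on the partner, the 227 transcripts over its 5′ end had medians of 1.61 in Hep3B and 2.17 in Huh7 at 500 nM, and 41 rose. The 120 over its 3′ end had 0.48 and 0.39, with 5 that rose, the 149 inside it 0.49 and 0.89, with 21 that rose, and the 36 that span it 0.12 and 0.23, with 0 that rose. As shares of those tested these are 18.5%, 4.42%, 15.0% and 0%, beside 14.1% of antisense transcripts and 3.45% of all genes. With 10 counts in every control, 8.54% over the 5′ end, 1.56% over the 3′ end and 2% inside rose. Of all genes with such controls 0.928% did. The medians of these transcripts in Hep3B and Huh7 at 500 nM were 0.85 and 1.31 over the 5′ end. They were 0.15 and 0.31 over the 3′ end, and below 0 inside the partner, at -0.15 and -0.34. Of all 565 pairs, 532 lie on opposite strands and 19 on the same strand in GENCODE v29, and 14 could not be placed. Of the 641 transcripts found there, 29 carry another type, 7 of them protein-coding. Transcripts within 5 kb downstream of a coding gene on their own strand, where reads running past that gene would fall, had medians of 0.04 in Hep3B and 0.36 in Huh7. Those over 50 kb downstream had 1.14 and 1.63. The near and far groups also differed in level, with a median of 1.35 and 0.69 CPM in the Hep3B control. Whether reads running past a gene add to these changes was not tested.

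The changes of antisense transcripts and of their partners did not run together. Over the 565 pairs at 500 nM, Pearson's r between both log2 ratios was -0.055 for Hep3B, -0.0080 for Huh7 and -0.033 for SNU449. The points of a line share a library and its control, 34 transcripts share 16 partners, and r is a description. In Hep3B, 35 pairs were both at least 2-fold higher, 7 both at least 2-fold lower, and 48 had the antisense transcript higher and the partner lower. In Huh7 these counts were 67, 11 and 70, and in SNU449 they were 0. Of all tested genes, 13.1%, 19.3% and 1.08% were at least 2-fold lower in Hep3B, Huh7 and SNU449. Where the partner was at least 2-fold lower in Huh7 (130 pairs), the antisense median was 1.45, and where it was at least 2-fold higher (117 pairs) it was 1.27. In Hep3B the 2 medians were 1.06 and 0.89.

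**Figure D5:**
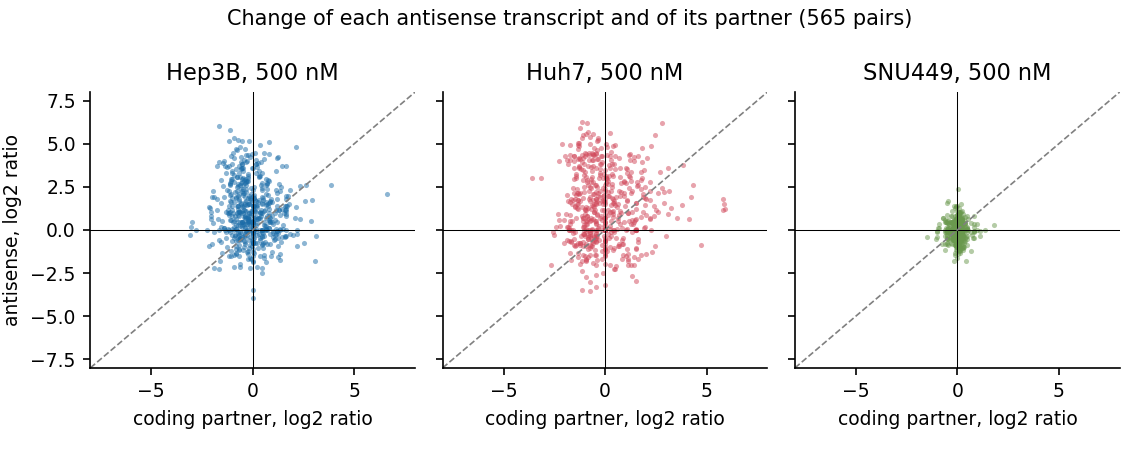
Each point is 1 of 565 pairs, with the log2 ratio of the coding partner at 500 nM on the x axis and that of the antisense transcript on the y axis, and the dashed line marks equal change. In Hep3B and Huh7 the cloud is stretched upward and r is -0.055 and -0.0080, and in SNU449 it sits around 0.

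In calls over the 3 lines, 70 of the 89 rising transcripts have a partner, and none of those partners passed: 68 were not past the test and 2 were too low to be tested. Few partners passed at all, with 7 higher and 3 lower of 479 tested. Within Hep3B, 10 rising transcripts had a partner that rose, 15 one that fell and 108 one that did not pass. Within Huh7 the numbers were 18, 10 and 121. Of all 479 tested partners, 40 rose and 52 fell in Hep3B, and 52 rose and 46 fell in Huh7. A link between the calls of both genes was not tested. Set against the partner per kb of exon, the median antisense level went from 6.49% of the partner in the Hep3B control to 14.0% and 16.3% at 250 and 500 nM. It went from 5.33% to 9.05% and 13.3% in Huh7 and from 6.48% to 6.32% and 6.01% in SNU449 (pairs whose partner had 100 counts in the library). The number of such pairs fell with depth, from 410 to 328 in Hep3B and from 393 to 219 in Huh7. Some transcripts in these pairs met the count rule through treated libraries alone, so part of the climb against the partner is built in.

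The difference between both changes was tested for 475 pairs in 1 model of both genes. At 500 nM the antisense transcript rose relative to its partner in 67 and fell in 4, against 6.33% and 0.825% of all 2908 overlapping pairs in the table. At 250 nM it rose in 30 and fell in 3 (background 2.92% and 0.344%). The 2908 include the 475, and where both genes of a pair are coding, which comes first has no meaning. Some of the 475 transcripts met the count rule through treated libraries alone, so part of the rise is built in. The shares are therefore not comparable. limma on the log2 ratio of both genes called 0 pairs at either dose. The 71 pairs at 500 nM became 0 without Hep3B or without Huh7 and 254 without SNU449. They became 9, 19 and 168 without the 500 nM library of Hep3B, Huh7 and SNU449, 43 and 46 without the 250 nM library of Huh7 and SNU449, and 0, 8 and 259 without the 3 controls. The 33 pairs at 250 nM became 0, 0 and 201 without the 3 lines, 0, 1 and 16 without their 250 nM libraries, 7 without Hep3B at 500 nM, and 0, 0 and 217 without the 3 controls.

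Among pairs with at least 50 counts of each gene in 1 library, the largest difference was that of RP11-334G22.1 and FANCL, which encodes the ubiquitin ligase of the Fanconi anaemia DNA repair pathway. FANCL had 34.5, 28.6 and 22.6 CPM in Hep3B, 22.1, 21.2 and 11.6 in Huh7 and 16.0, 15.1 and 12.8 in SNU449, lower at each dose step of every line. Its own change at 500 nM was -0.59 ± 0.25 (log2, adjusted p = 0.139), so it did not pass. The antisense change exceeded it by 7.55 ± 0.66 (adjusted p = 0.00113). Next came RP11-393I2.4 over the zinc finger gene ZNF292 (7.48 ± 0.89), RP11-326K13.4 in TRAPPC8, a gene of vesicle transport (7.12 ± 1.09), AC009501.4 and EHBP1 (6.97 ± 0.85), and RP11-501C14.5 and IGF2BP1 (6.85 ± 0.76), with adjusted p from 0.00253 to 0.00677. In all 4 the partner's own fitted change at 500 nM was below 0 and not past the test, between -0.77 and -0.58.

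The promoters printed above belong to the same kind of pair. RP5-1148A21.3 had 18, 104 and 124 counts in Hep3B, 4, 42 and 49 in Huh7 and 3, 5 and 2 in SNU449, while PTP4A1, a phosphatase gene, had 822, 575 and 552 CPM in Hep3B, 587, 564 and 459 in Huh7 and 201, 184 and 206 for SNU449. The pair difference was 4.50 ± 0.87 (log2, adjusted p = 0.0163). RP4-549L20.3 exceeded EXTL2 by 4.53 ± 0.64 (adjusted p = 0.00535), and RP11-293A21.1 exceeded STIM2, the calcium sensor of the endoplasmic reticulum, by 4.52 ± 0.82 (adjusted p = 0.0132). For CTD-2371O3.3 and ZNF143 the difference was 4.32 ± 1.04 (adjusted p = 0.0394).

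In 4 pairs the antisense transcript fell relative to its partner: RP11-196G18.23 and HIST2H2BE, RP11-157P1.4 and ADRM1, ZNF213-AS1 and ZNF213, and RP11-96D1.11 and NFATC3. ZNF213 itself rose, with 9.43, 61.3 and 43.8 CPM in Hep3B, 8.35, 61.7 and 98.0 in Huh7 and 9.73, 12.9 and 12.1 in SNU449 (1.95 ± 0.50, adjusted p = 0.0453). ZNF213-AS1 had 4.70, 3.21 and 4.61 CPM in Hep3B, 2.43, 1.70 and 4.05 in Huh7 and 3.14, 2.34 and 1.77 in SNU449, a difference of -2.06 ± 0.52 (adjusted p = 0.048). NFATC3 hardly moved (-0.10 ± 0.25) while its antisense transcript was lower (difference -1.85 ± 0.47, adjusted p = 0.048).

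Partners were also read by function. Of 24 transcripts that overlap a zinc finger gene with a ZNF symbol, 5 rose at 500 nM and 0 fell, and 8 rose in each of Hep3B and Huh7, where 27.3% and 30.6% of all tested antisense transcripts did. Their median fitted change was 1.39, beside 0.73 over all antisense transcripts tested, and that of their partners was -0.43. They include RP11-393I2.4 and AC005614.3, over ZNF780A, which had 1, 19 and 21 counts in Hep3B, 0, 4 and 17 in Huh7 and 0, 0 and 1 in SNU449. Of 3 transcripts beside DNA repair genes, RP11-334G22.1 rose, and those over RAD52 and MRE11A did not pass. Of 2 beside hepatocyte genes, RP11-478J18.2 inside the liver transcription factor gene PROX1 rose (4.33 ± 0.80, adjusted p = 0.0135, and 0.161 and 0.226 without Hep3B or Huh7 at 500 nM), and A2M-AS1 did not pass. Among the early response genes, XXbac-BPG252P9.10 over IER3 rose within Hep3B and Huh7 but not over the 3 lines (adjusted p = 0.105). IER3, a stress-induced gene, went from 22.9 to 254 and 1340 CPM in Huh7. The transcript over the exonuclease gene XRN2 and the 2 over cell cycle genes, TMPO-AS1 and CDKN2B-AS1, did not pass at 500 nM (adjusted p = 0.0966, 0.0766 and 0.729).

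Of 40 antisense RNAs listed because they have been described before, 18 met the rule. At 500 nM 1 rose, KCNQ1OT1, and 0 fell, and their median fitted change was 0.55. Within Hep3B, 2 rose and 1, EGFR-AS1, fell, and within Huh7 2 rose. Of all tested genes, 3.45% were higher over the 3 lines at 500 nM. Within Hep3B 9.82% of all genes rose and 6.72% fell, and within Huh7 13.3% rose. With only 18 transcripts, these counts are no result about the described RNAs. ZFAS1, the host of small nucleolar RNAs beside ZNFX1, had 18.4, 56.2 and 70.8 CPM in Hep3B, 13.1, 40.2 and 73.9 in Huh7 and 25.1, 25.7 and 25.1 in SNU449. It rose within Hep3B (1.79 ± 0.40, adjusted p = 0.0138) and Huh7 (2.12 ± 0.42, adjusted p = 0.00704), and over the 3 lines its adjusted p was 0.0557. The HOX cluster transcripts HOTAIRM1 and HOXA-AS2 had fitted changes of 1.44 ± 0.83 and 1.04 ± 0.59 (adjusted p = 0.256 and 0.253). BACE1-AS, which overlaps the secretase gene BACE1, had -1.53 ± 0.72 (adjusted p = 0.178). The rest gave changes from -0.49 to 1.45, none past the test.

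Of the 6 transcripts with the highest CPM, uncorrected for length, FGD5-AS1 stood at 156, 178 and 188 CPM in Hep3B, 138, 182 and 222 in Huh7 and 121, 113 and 115 in SNU449. Its change at 500 nM was 0.29 ± 0.25 (log2, adjusted p = 0.457), and -0.22 under total-count scaling. HCG18, from the MHC region, had 79.9, 47.1 and 47.2 CPM in Hep3B and 31.5, 20.3 and 11.3 in Huh7, with -0.66 ± 0.29 (adjusted p = 0.152). FLJ31306 had a change of 0.19 ± 0.23 (adjusted p = 0.596), and -0.33 under total-count scaling. The other 3 were ARHGAP5-AS1, TUG1 and ZFAS1.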

How the data were processed

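Polyadenylated RNA of 9 libraries was sequenced by the authors, and per the labels the libraries were stranded and made with the TruSeq RNA kit. Alignment and counting tools appear in the submitters' processing notes as HISAT2 and HTSeq, with the build GRCh38. Versions, annotation release and strand setting are not stated in the sources used here. The values deposited by the authors are raw counts per gene, not normalized. The 9 columns were mapped to samples by the cell line and dose in their names.

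Counts were scaled with TMM factors, filtered with filterByExpr on the dose groups and tested with edgeR 4.0.16 (R 4.3.3) by the quasi-likelihood test, two-sided, with Benjamini-Hochberg adjustment at 0.05 over all 15479 tested genes. The dose fit had terms for line and dose (4 residual degrees of freedom), so the replicates of a dose are the 3 lines and each dose was compared within its line. The line fit gave every line its own mean and its own treated term (3 degrees). Pairs were fitted with the 9 libraries of each gene as 18 columns (4 degrees) and adjusted over all 2908 pairs of tested genes. The pairing of samples comes from the shared cell line in the labels. Both doses of a line share its control, so their values are not independent. CPM are TMM-scaled, and log2 ratios use a prior count of 2. An SE is the log2 change divided by the root of its F. Ratio intervals are exact binomial at 95% and cover counting error only, as do floors of 3 counts.

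Exons, strands and 3′ ends came from GENCODE v29, and promoters from RefSeq. DESeq2 1.42.0, limma 3.58.1, total-count scaling, other filters and leaving out libraries were alternatives. The scripts were tested on simulated data. Named transcripts are the 12 largest rises and 6 clearest falls at 500 nM, the 5 largest each way at 250 nM and per line, the smallest p of the line test, the most unequal pairs, the 6 highest, and listed partners or described RNAs; of these, up to 4 per list are named. KCNQ1OT1, the 4 promoter pairs and the 2 falling pairs with fewer than 50 counts of a gene, RP11-196G18.23 and RP11-157P1.4, were partly named after their values were seen. The transcripts and lists were chosen with earlier results of these data known.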

Additional observations from a re-analysis of the deposited data

Results flagged for a closer look

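The change with THZ531 differed between the 3 cell lines for 6 antisense transcripts, by an F test of equal treated terms in edgeR with adjustment over all tested genes. That is 0.952% of the 630 tested, below the 1.14% of all genes, so the count is no result about antisense transcripts. ARHGAP5-AS1 (adjusted p = 0.0192) and MBNL1-AS1 (adjusted p = 0.0258) were higher in all 4 treated Hep3B and Huh7 libraries. RP11-420L9.5 (adjusted p = 0.028), ENSG00000272686 (adjusted p = 0.0388), TSC22D1-AS1 (adjusted p = 0.0454) and the antisense gene listed as MIR4519 (adjusted p = 0.049) were so too. MBNL1-AS1 had 0.817, 24.0 and 17.8 CPM in Hep3B, 1.49, 10.1 and 19.4 in Huh7 and 1.81, 1.69 and 1.72 in SNU449. ENSG00000272686, which starts next to WASL, had treated terms of 4.11 ± 0.51 in Hep3B, 3.74 ± 0.50 in Huh7 and 0.33 ± 0.49 in SNU449 (log2), and it also rose over the 3 lines at 500 nM (adjusted p = 0.0356). The antisense gene listed as MIR4519 had 6, 134 and 66 counts in Hep3B, 11, 45 and 57 in Huh7 and 16, 9 and 17 in SNU449.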

How the results depend on the processing

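Counts of calls moved with the settings. No named change past the threshold reversed its sign, but 8 that had not passed did. Under total-count scaling they were -0.22 for FGD5-AS1, -0.33 for FLJ31306, -0.082 for SBF2-AS1, -0.39 for CDKN2B-AS1, -0.27 for A2M-AS1, -0.14 for LOXL1-AS1 and -0.035 for RP11-685N10.1. ZNF213-AS1 had 0.0015 by DESeq2 and 0.016 without the replicate block. Leaving out libraries or lines gave -0.43 to 0.32 for ZNF213-AS1, -0.084 to 0.77 for SBF2-AS1, -0.20 to 0.75 for CDKN2B-AS1, -0.44 to 1.25 for A2M-AS1, -0.22 to 0.68 for LOXL1-AS1 and -0.39 to 0.57 for RP11-685N10.1 (log2 at 500 nM). Without the replicate block for cell line, 0 transcripts were called at 500 nM, at 250 nM and over both doses, and 0 pairs at either dose. With no filter on low counts, 197 were higher and 13 lower at 500 nM, 114 higher and 7 lower at 250 nM, 195 changed over both doses and 98 differed between lines. Total-count scaling gave 20 lower at 500 nM, 1 lower at 250 nM, 162 over both doses and 3 between lines. DESeq2 gave 3 lower at 500 nM and 34 between lines, and limma-voom 1, 33 and 155 over both doses. With only the libraries of the 2 doses compared, 6 were higher at 500 nM, 0 at 250 nM, and 3 differed between the doses. Requiring 20 counts in 3 libraries left 50 higher at 500 nM, 20 at 250 nM, 50 over both doses, 113 in Hep3B and 131 in Huh7. Requiring 10 counts in each control left 13, 1, 13, 46 and 60, and 3 between lines. limma on the log2 ratio of a pair called 0 pairs at both doses and with either prior count, 2 or 0.5. Leaving out libraries or lines in turn gave 0 to 289 higher and 0 to 36 lower at 500 nM, 0 to 237 and 0 to 36 at 250 nM, 0 to 1 between the doses and 0 to 324 over both. It gave 0 to 120 between lines, 0 to 305 in Hep3B, 83 to 290 in Huh7, 0 to 0 in SNU449, 0 to 259 pairs at 500 nM and 0 to 217 at 250 nM. The cause was not tested. Of the 89 higher at 500 nM, 87 were also called under total-count scaling, 86 by DESeq2 and 83 by limma-voom. For the 45 named changes and pair differences past the threshold, 456 alternative values stayed past it and 264 did not. For the 36 not past it, 109 passed.

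Depth limits the low transcripts most: RP11-334G22.1, with 1 count in its Hep3B control, has a counting interval from 21.1 to 4989 for its ratio.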
